A study of Homo sapiens with 41 samples.

Results

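The 35 genes described here code for proteins that take up glucose, break it down to pyruvate and lactate, or answer to low oxygen. They were listed by name, and all 35 were found among the 58735 genes of every count table through its Ensembl identifiers. By role they were 2 glucose transporters, 8 enzymes from hexokinase to aldolase, 7 enzymes from triose phosphate to pyruvate, 2 isoenzymes of PFK-2, 5 genes of pyruvate fate and lactate export, 2 HIF prolyl hydroxylases, and 9 other hypoxia-inducible genes of pH control, mitophagy and signalling. The series measured RNA in 2 human cell lines to study ATF4, the main transcription factor of the integrated stress response. LX-2 cells are immortalised human stellate cells, which lay down collagen in a scarred liver, and HMLE cells are immortalised epithelial cells of the human breast. Both lines carried a hairpin RNA named shCtrl (the control) or one named shATF4. LX-2 cells were kept in DMSO (the vehicle), TGFbeta (the main fibrogenic cytokine), thapsigargin (a blocker of the calcium pump of the endoplasmic reticulum) or AA_Dep, a name the labels do not spell out. HMLE cells had DMSO, thapsigargin and AA_Dep too, and Twist_OE as the fourth condition. Dose and time are not given, nor is an empty-vector control for Twist_OE, and the labels do not say how many hairpin sequences or clones stand behind each name. Each line thus had 8 groups of 2 samples, 32 RNA samples in all, and a further 9 chromatin samples were not analysed here.

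Glycolysis splits glucose into pyruvate in the cytosol and yields ATP without oxygen, and lactate dehydrogenase then turns pyruvate into lactate, which leaves the cell through monocarboxylate carriers. Hypoxia-inducible factors (HIFs) are transcription factors whose alpha subunits are marked for destruction by prolyl hydroxylases while oxygen is present. When oxygen falls, HIF binds the core letters ACGTG or GCGTG near its target genes, and most steps of glycolysis are among the textbook targets. ATF4 is made when translation is slowed by stress in the endoplasmic reticulum or by lack of amino acids, and it binds a composite C/EBP-ATF element, TGATGNAA, near genes of amino acid supply. Stellate cells that turn into myofibroblasts are known to raise glycolysis.

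The LX-2 libraries used held 14551191 to 18776430 counts each, the HMLE libraries 15956909 to 23243132. Both HMLE shATF4 AA_Dep files were the same throughout and count as 1 sample, so that group has n = 1. LX-2 shCtrl thapsigargin replicate 2 stood apart: 15840 genes had a count there, where the rest of LX-2 had 22912 to 24255, and its log2 CPM correlated with replicate 1 at r = 0.916, where no LX-2 pair besides fell below 0.995. Mitochondrially encoded genes took 0.154% of its counts and ribosomal protein genes 10.2%, outside the ranges of 2.04% to 3.14% and 2.53% to 4.08% over the rest of LX-2. It was left out of the LX-2 fit, so LX-2 shCtrl thapsigargin also has n = 1 and is assumed to vary like the other groups. With it, the biological coefficient of variation over LX-2 genes was 29.5%, and without it 9.21%, against 5.24% in HMLE. By the median over libraries, 8 of 10 stellate markers were at 1 CPM (a scaled count) or more in LX-2, collagens among them, with DES and LRAT below, and 10 of 10 mammary epithelial markers were so in HMLE. In LX-2 6 of the 10 mammary markers were below 1 CPM (CDH1, CLDN1, EPCAM, KRT14, KRT5 and TP63). In HMLE 5 of the 10 stellate markers were at 1 CPM or more, with COL1A2, COL3A1, COL5A1, DES and PDGFRB below. All 6 hepatocyte markers were below 1 CPM in both lines. Of the members, 34 were tested in LX-2 (CA9 fell below the count filter) and 35 in HMLE, and 31 and 34 of these had a mean of 10 CPM or more. ATF4 fell with its hairpin in all 8 comparisons, by 0.91 to 1.64 on the log2 scale in LX-2 and by 0.97 to 2.78 in HMLE. The labels do not say that replicates came from separate cultures, so p-values measure only the spread between these samples. In RNA from many cells, fewer cells of a kind and less RNA per cell cannot be told apart.

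The promoters of 4 members are printed, chosen among members with a promoter window. These hold the most HIF core letters of those that changed with the ATF4 hairpin in LX-2 TGFbeta or with Twist_OE in HMLE. Each run is the RefSeq window (GRCh38.p14) of 300 bases, 250 before to 50 after the annotated start, 5′ to 3′ on the gene's strand, with every match to the HIF core (ACGTG or GCGTG) or to TGATGNAA on either strand in capitals, where a match on the other strand shows as its reverse complement. The windows lie at chr10:131981874-131982173 (minus strand) for BNIP3, chr11:18394313-18394612 (plus strand) for LDHA, chr17:28576846-28577145 (minus strand) for ALDOC and chr2:74834920-74835219 (plus strand) for HK2.

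BNIP3 (a mitophagy receptor), LDHA (lactate dehydrogenase A), ALDOC (aldolase C) and HK2 (hexokinase 2) read as follows.
BNIP3: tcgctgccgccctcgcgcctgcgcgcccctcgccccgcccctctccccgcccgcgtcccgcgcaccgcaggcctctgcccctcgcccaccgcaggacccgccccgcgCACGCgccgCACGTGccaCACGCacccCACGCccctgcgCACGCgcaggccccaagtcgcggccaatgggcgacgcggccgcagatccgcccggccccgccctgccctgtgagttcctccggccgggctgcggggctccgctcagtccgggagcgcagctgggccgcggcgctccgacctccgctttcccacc
LDHA: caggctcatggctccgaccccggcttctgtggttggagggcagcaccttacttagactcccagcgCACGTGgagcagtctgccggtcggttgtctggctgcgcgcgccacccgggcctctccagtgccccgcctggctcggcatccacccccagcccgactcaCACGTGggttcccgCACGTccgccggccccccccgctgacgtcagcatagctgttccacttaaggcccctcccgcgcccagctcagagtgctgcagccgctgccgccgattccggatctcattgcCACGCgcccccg
ALDOC: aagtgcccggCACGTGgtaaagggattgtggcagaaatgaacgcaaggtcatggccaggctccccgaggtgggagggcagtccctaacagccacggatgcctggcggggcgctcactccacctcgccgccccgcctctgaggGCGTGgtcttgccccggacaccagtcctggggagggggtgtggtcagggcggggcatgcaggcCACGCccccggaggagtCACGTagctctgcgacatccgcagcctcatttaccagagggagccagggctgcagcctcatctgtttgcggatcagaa
HK2: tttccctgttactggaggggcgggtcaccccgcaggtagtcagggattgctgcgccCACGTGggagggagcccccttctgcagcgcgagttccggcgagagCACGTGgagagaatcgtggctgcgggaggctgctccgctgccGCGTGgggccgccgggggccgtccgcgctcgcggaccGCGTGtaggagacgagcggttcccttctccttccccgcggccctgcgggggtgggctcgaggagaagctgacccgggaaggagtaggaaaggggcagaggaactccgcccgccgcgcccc

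The printed windows of BNIP3, LDHA and HK2 each held 6 matches to ACGTG or GCGTG and that of ALDOC held 5, where CACGTG counts on both strands. The other window of LDHA held 1 match and the other window of HK2 held 3. None of the 4 printed windows held TGATGNAA. Windows were found for 31 of the 35 members. NDRG1, BNIP3L, SLC2A3 and SLC16A1 had none and were not searched for either motif. Of the 31 genes, 29 (93.5%) had ACGTG or GCGTG in at least 1 window, against 52.4% of all 27305 genes with a window. Members had 1.94 windows a gene against 1.29 for all genes, and counted by window the shares were 68.3% of 60 member windows and 48.4% of all 35116. ACGTG alone was in 40.0% of member windows and 21.4% of all windows, while GCGTG alone was in 43.3% and 36.5%. TGATGNAA was in 3.33% of member windows, those of HK1 (hexokinase 1), and in 3.62% of all windows. These are matches of letters and not binding data.

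In LX-2 cells with shCtrl, TGFbeta raised the glucose transporter SLC2A1, the PFK-2 isoenzymes PFKFB3 and PFKFB4 and the hypoxia-inducible NDRG1, and lowered ADM, which codes for the vasoactive peptide adrenomedullin. SLC2A1 rose by 1.103 ± 0.094 (log2, SE; edgeR adjusted p = 3e-07), PFKFB3 by 0.94, NDRG1 by 0.81 and PFKFB4 by 0.73. ADM fell by 2.37 ± 0.13 (log2, SE; edgeR adjusted p = 2.5e-09), neuronal enolase ENO2 by 0.57, SLC2A3 by 0.51 and pyruvate kinase PKM by 0.48. TGFbeta left 10 of 34 members higher (29.4%, against 11.1% of all genes tested) and 4 lower (11.8%, against 11.0%), with a median log2 change of 0.14 over the members. The 10 stellate markers summed to 21476 and 21536 CPM in TGFbeta against 8071 and 8469 in DMSO, the 10 mammary markers to 1620 and 1743 against 792 and 906, and their part in the members' changes was not tested. By the median, only 4 of the 10 mammary markers were at 1 CPM or more in LX-2, so LX-2 sums of this list rest mainly on those 4. The members had a median level of 107 CPM in LX-2 against 12.0 for all genes tested, and the part of this higher level in the shares called was not tested. With library totals in place of trimmed-mean scaling, under which the median of all genes moved by -0.13, the split became 8 higher and 9 lower. With all 16 LX-2 libraries in the fit, 3 members passed.

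Thapsigargin lowered most of the pathway in the single LX-2 shCtrl library used: LDHA fell by 1.37 ± 0.083 (log2, SE; edgeR adjusted p = 3.5e-09), PFKFB3 by 1.49 and ALDOC by 1.17. Carbonic anhydrase CA12 fell by 3.01 ± 0.53 (log2, SE; edgeR adjusted p = 3e-04) from a low level. MXI1, a MYC antagonist, rose by 0.63 ± 0.18 (log2, SE; edgeR adjusted p = 0.011), HK1 by 0.49 and HK2 by 0.46. The comparison gave 3 of 34 members higher (8.82%, against 20.2% of all genes tested) and 19 lower (55.9%, against 20.4%), and the median was -0.53. With both libraries of the group in the fit 12 members passed, and with replicate 2 in place of replicate 1 there were 28 (7 higher, 21 lower), in a fit that called 14086 of all 19054 genes tested, with a median of -0.65 over all genes. The ALDOC call was lost both ways, at -0.47 with both libraries (edgeR adjusted p = 0.26) and -0.040 with replicate 2 in place of replicate 1 (0.83). The stellate markers summed to 1979 CPM in thapsigargin against the 8071 and 8469 of DMSO, and the mammary markers to 402 against 792 and 906, and their part was not tested. In that left-out library PFKL, ENO1, GPI, HK2, MXI1 and PKM lay on the other side of DMSO, so their direction rests on which library is used. The MXI1 call was also lost without LX-2 shCtrl DMSO replicate 1 (edgeR adjusted p = 0.073).

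In LX-2, AA_Dep raised BNIP3 most and lowered CA12 most. BNIP3 rose by 1.96 ± 0.085 (log2, SE; edgeR adjusted p = 6.7e-11), ENO2 by 1.49, aldolase A (ALDOA) by 1.41 and NDRG1 by 1.14. CA12 fell by 3.06 ± 0.41 (log2, SE; edgeR adjusted p = 1.6e-05), ALDOC by 0.78, the liver-type phosphofructokinase PFKL by 0.63 and the isomerase GPI by 0.35. It left 17 of 34 members higher (50%, against 22.8% of all genes tested) and 5 lower (14.7%, against 22.7%), with a median of 0.25. The 2 shCtrl AA_Dep libraries differed from each other more than the other pairs in this fit (r = 0.995), and ribosomal protein genes took 4.08% of counts in replicate 1 and 2.85% in replicate 2. The stellate markers summed to 3154 and 3206 CPM in AA_Dep, below DMSO, and the mammary markers to 419 and 522, and their part was not tested. With all 16 LX-2 libraries 10 members passed (9 higher, 1 lower), and 14 when other groups were kept out of the fit, where the GPI call was lost (edgeR adjusted p = 0.072).

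**Figure D1:**
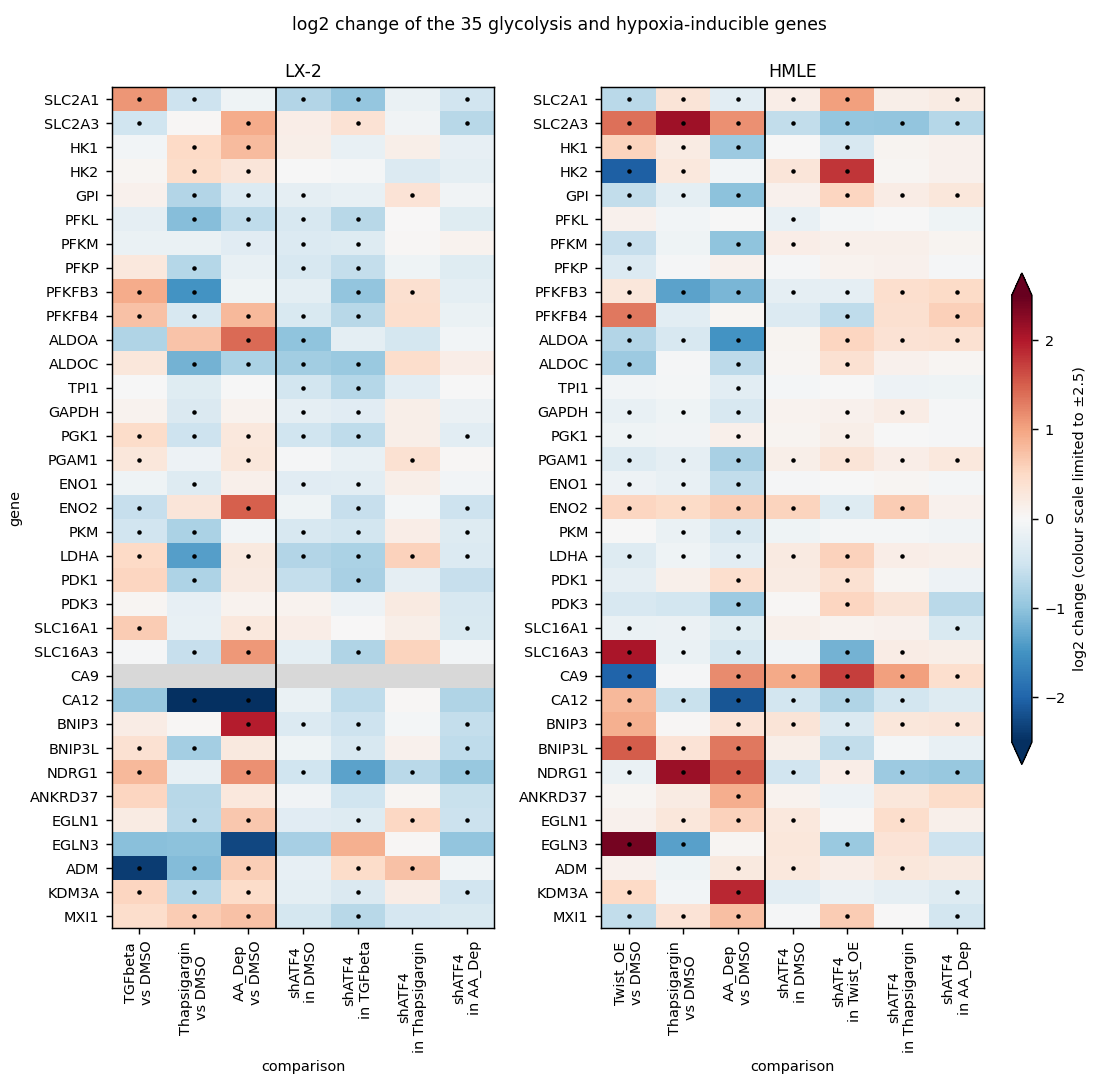
Log2 change of the 35 genes (rows) in 14 comparisons (columns), LX-2 left and HMLE right: to the left of the black line, conditions against DMSO in shCtrl cells, and to the right of it, shATF4 against shCtrl in each condition. Colour gives the fitted log2 change, a dot marks adjusted p under 0.05 by edgeR and grey marks a gene not tested (CA9 in LX-2). Columns of shATF4 in LX-2 DMSO, TGFbeta and AA_Dep are mostly blue with 16, 22 and 12 members lower, while the HMLE columns mix both colours.

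With the ATF4 hairpin, glycolytic genes were lower in LX-2 cells in DMSO and in TGFbeta. In DMSO, ALDOA fell by 1.01 ± 0.31 (log2, SE; edgeR adjusted p = 0.044), ALDOC by 0.86, LDHA by 0.74 and SLC2A1 by 0.74. This gave 0 of 34 members higher (0%, against 6.28% of all genes tested) and 16 lower (47.1%, against 5.30%), with a median of -0.29. In TGFbeta, NDRG1 fell by 1.34 ± 0.091 (log2, SE; edgeR adjusted p = 4.8e-08), PFKFB3 by 0.99, SLC2A1 by 0.97 and ALDOC by 0.93. ADM rose by 0.46 ± 0.14 (log2, SE; edgeR adjusted p = 0.029) and SLC2A3 by 0.36. The counts in TGFbeta were 2 of 34 members higher (5.88%, against 10.9% of all genes tested) and 22 lower (64.7%, against 10.7%), and the median was -0.48. The stellate markers summed to 5266 and 5419 CPM with shATF4 in DMSO and to 10757 and 10812 with shATF4 in TGFbeta, and the mammary markers to 385 and 404 and to 597 and 621, all below the shCtrl sums given above, and their part was not tested. With all 16 LX-2 libraries the same edgeR test called 0 of 33 members in DMSO and 1 in TGFbeta. At an unadjusted p under 0.05 there were 6 and 11, against 1158 and 1968 of all 17772 genes tested. The medians were -0.30 and -0.50 there. The added library is in none of these groups, so it bears on these medians only through shared steps such as scaling. DESeq2's Wald test on the 15 libraries called 16 and 24. The DMSO count was 7 without shATF4 DMSO replicate 1, 6 without shATF4 DMSO replicate 2 and 6 without shCtrl DMSO replicate 2, and the TGFbeta count was 15 without shATF4 TGFbeta replicate 1. The ALDOA call in DMSO was lost without any of the first 3 libraries just named (edgeR adjusted p = 0.14, 0.24 and 0.3), and that of ADM in TGFbeta without any 1 of the 4 libraries compared (0.066 to 0.19). The SLC2A3 call in TGFbeta was lost without shATF4 replicate 1, shATF4 replicate 2 or shCtrl replicate 1 (edgeR adjusted p = 0.095, 0.077 and 0.18).

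In thapsigargin, with the hairpin in LX-2, ADM rose by 0.73 ± 0.16 (log2, SE; edgeR adjusted p = 0.012), LDHA by 0.58, EGLN1 by 0.51 and PFKFB3 by 0.39, while NDRG1 fell by 0.67. The comparison gave 6 of 34 members higher (17.6%, against 3.11% of all genes tested) and 1 lower (2.94%, against 2.09%), with a median of 0.13, and it rests on 1 shCtrl library. Its count was 2 without shATF4 thapsigargin replicate 1, 3 without shATF4 thapsigargin replicate 2, 11 with only the compared groups (7 higher, 4 lower), and 29 with shCtrl replicate 2 in place of replicate 1 (19 higher, 10 lower), a fit that called 13731 of all 19054 genes, with a median of 0.66. With both shCtrl libraries in the fit edgeR called 0 of 33 members. At an unadjusted p under 0.05 there were 8, a lower share than the 5735 of all 17772 genes tested. With library totals alone the split was 5 higher and 2 lower. Without shATF4 replicate 1 the calls of ADM, EGLN1 and PFKFB3 were lost (edgeR adjusted p = 0.08, 0.055 and 0.17), and without shATF4 replicate 2 those of EGLN1 and PFKFB3 (0.12 and 0.065).

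In AA_Dep the hairpin again went with lower levels in LX-2: NDRG1 fell by 0.94 ± 0.088 (log2, SE; edgeR adjusted p = 6.4e-06), SLC2A3 by 0.69, the mitophagy receptors BNIP3L by 0.63 and BNIP3 by 0.60. This gave 0 of 34 members higher (0%, against 3.87% of all genes tested) and 12 lower (35.3%, against 6.04%), with a median of -0.31. Ribosomal protein genes took 4.01% and 3.76% of counts with shATF4, against the 4.08% and 2.85% given above for shCtrl. The count was 6 without either shATF4 AA_Dep library, 19 without shCtrl AA_Dep replicate 1, 1 when other groups were kept out of the fit, and 0 with all 16 LX-2 libraries (6 at an unadjusted p under 0.05). In the fit without other groups the calls of SLC2A3, BNIP3L and BNIP3 were lost (edgeR adjusted p = 0.099, 0.13 and 0.1). With all 16 libraries 932 of all 17772 genes tested were at an unadjusted p under 0.05. NDRG1, a stress-inducible protein of the cytosol, was the only member that fell in all 4 LX-2 hairpin comparisons, and 6 of the 34 tested members passed in none of them (ANKRD37, CA12, EGLN3, HK1, HK2 and PDK3). EGLN1, GPI, LDHA, PFKFB3 and SLC2A3 passed in both directions, each in different conditions. How many of all genes passed in all 4 LX-2 hairpin comparisons, in none or in both directions was not counted.

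In HMLE cells with shCtrl, Twist_OE split the set. EGLN3 (a HIF prolyl hydroxylase) rose by 2.39 ± 0.13 (log2, SE; edgeR adjusted p = 8e-12), the lactate exporter SLC16A3 by 2.04, BNIP3L by 1.51 and SLC2A3 by 1.37. HK2 fell by 2.04 ± 0.068 (log2, SE; edgeR adjusted p = 4.1e-15), carbonic anhydrase CA9 by 2.00, ALDOC by 0.92 and ALDOA by 0.73. Twist_OE gave 11 of 35 members higher (31.4%, against 28.3% of all genes tested) and 16 lower (45.7%, against 28.9%), with a median of -0.11, so the share of risers was near that of all genes. In the same libraries the 10 mammary epithelial markers summed to 1356 and 1453 CPM in shCtrl Twist_OE, against 7714 and 7899 in shCtrl DMSO, and the 10 stellate markers, which include mesenchymal genes such as VIM, to 2507 and 2659 against 44.9 and 49.6. The part of these marker changes in the members' changes was not tested.

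Thapsigargin in HMLE raised NDRG1 and SLC2A3 most. NDRG1 rose by 2.14 ± 0.050 (log2, SE; edgeR adjusted p = 2.6e-16), SLC2A3 by 2.12, ENO2 by 0.48 and BNIP3L by 0.34. EGLN3 fell by 1.36 ± 0.18 (log2, SE; edgeR adjusted p = 5e-06), PFKFB3 by 1.33, CA12 by 0.56 and ALDOA by 0.40. The comparison gave 9 of 35 members higher (25.7%, against 18.6% of all genes tested) and 12 lower (34.3%, against 18.2%), with a median of -0.074. The mammary markers summed to 11621 and 11734 CPM in thapsigargin and to 9236 and 9592 in AA_Dep, against the DMSO sums given above. AA_Dep raised 8 of the 9 genes of the pH, mitophagy and signalling group in HMLE and lowered 5 of 8 enzymes from hexokinase to aldolase and 5 of 7 from triose phosphate to pyruvate. KDM3A, a histone demethylase, rose by 1.89 ± 0.086 (log2, SE; edgeR adjusted p = 1e-12), NDRG1 by 1.51, BNIP3L by 1.33 and CA9 by 1.19. CA12 fell by 2.14 ± 0.083 (log2, SE; edgeR adjusted p = 1.3e-13), ALDOA by 1.5, PFKFB3 by 1.14 and GPI by 1.02. AA_Dep left 13 of 35 members higher (37.1%, against 29.1% of all genes tested) and 17 lower (48.6%, against 32.6%), with a median of -0.073. Mitochondrially encoded genes took 2.54% to 2.95% of counts in the HMLE AA_Dep libraries and 0.366% to 0.970% in the other HMLE libraries, and their part in these changes was not tested.

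The ATF4 hairpin split the set in HMLE DMSO cells, with more members higher than lower. CA9 rose by 0.94 ± 0.092 (log2, SE; edgeR adjusted p = 9.9e-07), ENO2 by 0.56, BNIP3 by 0.32 and HK2 by 0.31. SLC2A3 fell by 0.61 ± 0.097 (log2, SE; edgeR adjusted p = 0.00028), NDRG1 by 0.49, CA12 by 0.45 and PFKFB3 by 0.22. This gave 10 of 35 members higher (28.6%, against 6.08% of all genes tested) and 5 lower (14.3%, against 6.72%), with a median of 0.075. The count was 9 without shATF4 DMSO replicate 2, 8 without shCtrl DMSO replicate 1 and 9 without shCtrl DMSO replicate 2. The BNIP3 call was lost without shCtrl DMSO replicate 1 (edgeR adjusted p = 0.087) and that of PFKFB3 without shATF4 DMSO replicate 2 (0.05).

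In Twist_OE, HK2 and CA9 were higher and SLC16A3 and SLC2A3 lower with the hairpin, in a comparison that shares the shCtrl Twist_OE libraries with the response above. HK2 rose by 1.78 ± 0.068 (log2, SE; edgeR adjusted p = 6.7e-14), CA9 by 1.73, SLC2A1 by 1.02 and MXI1 by 0.63. SLC16A3 fell by 1.18 ± 0.050 (log2, SE; edgeR adjusted p = 3e-13), SLC2A3 by 0.96, EGLN3 by 0.92 and CA12 by 0.75. The counts were 15 of 35 members higher (42.9%, against 23.3% of all genes tested) and 10 lower (28.6%, against 23.9%), with a median of 0.079. TWIST1 itself stood at 133 ± 9.62 CPM (mean ± SD, n = 2) in shCtrl Twist_OE and at 31.6 ± 0.750 in shATF4 Twist_OE, against 17.6 ± 0.354 and 13.2 ± 3.51 in DMSO. The mammary markers summed to 6819 and 7148 CPM in shATF4 Twist_OE, below shCtrl in DMSO but far above shCtrl Twist_OE, and the stellate markers to 355.5 and 413.9. An effect of the hairpin and an effect of less TWIST1 cannot be told apart in this comparison.

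In thapsigargin, CA9 rose by 1.02 ± 0.092 (log2, SE; edgeR adjusted p = 1.2e-07), ENO2 by 0.63, EGLN1 by 0.45 and PFKFB3 by 0.43 with the hairpin in HMLE, while SLC2A3 fell by 0.98, NDRG1 by 0.91 and CA12 by 0.45. This comparison gave 12 of 35 members higher (34.3%, against 12.3% of all genes tested) and 3 lower (8.57%, against 11.9%), with a median of 0.12. In AA_Dep, where shATF4 has 1 library, PFKFB4 rose by 0.60 ± 0.18 (log2, SE; edgeR adjusted p = 0.027), PFKFB3 by 0.48, CA9 by 0.42 and ALDOA by 0.37, and NDRG1 fell by 0.95, SLC2A3 by 0.71, MXI1 by 0.46 and the monocarboxylate carrier SLC16A1 by 0.37. AA_Dep thus gave 8 of 35 members higher (22.9%, against 9.77% of all genes tested) and 5 lower (14.3%, against 7.09%), with a median of 0.052, and with library totals alone the split was 5 higher and 6 lower. Without shCtrl AA_Dep replicate 1 the count was 8, and the calls of PFKFB4, ALDOA and MXI1 were lost (edgeR adjusted p = 0.19, 0.26 and 0.14). CA9 and PGAM1 (phosphoglycerate mutase) rose in all 4 HMLE hairpin comparisons and SLC2A3 fell in all 4, while 5 members passed in none (ANKRD37, ENO1, PFKP, PKM and TPI1). BNIP3, ENO2, MXI1, NDRG1, PFKFB3, PFKFB4 and SLC16A3 passed in both directions, each in different conditions. ANKRD37, an ankyrin repeat protein, was the 1 member that passed in no hairpin comparison of either line. Its level was low, with group means from 1.47 to 3.37 CPM in LX-2 and 3.26 to 9.00 CPM in HMLE, so a change could be missed. How many of all genes passed in all 4 HMLE hairpin comparisons, in none or in both directions was not counted.

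The glucose transporters behaved differently from each other. SLC2A1 codes for GLUT1, the transporter that most cells use at rest. SLC2A1 with shCtrl in LX-2 read 100.3 and 118 CPM (DMSO), 226 and 234 (TGFbeta), 75.8 (thapsigargin) and 108 and 95.05 (AA_Dep). With shATF4, SLC2A1 read 63.05 and 66.7 CPM (DMSO), 117 and 116 (TGFbeta), 66.9 and 65.4 (thapsigargin) and 68.6 and 77.8 (AA_Dep). Both shCtrl TGFbeta libraries were above every other LX-2 library, and with shATF4 the TGFbeta libraries came down to the level of shCtrl in DMSO, with overlap. SLC2A1 with shCtrl in HMLE read 339 and 338 CPM (DMSO), 209.9 and 202 (Twist_OE), 437 and 404 (thapsigargin) and 283 and 294 (AA_Dep). With shATF4, SLC2A1 read 396 and 374 CPM (DMSO), 429 and 419 (Twist_OE), 467 and 456 (thapsigargin) and 325 (AA_Dep). Both shCtrl Twist_OE libraries were the lowest of the HMLE libraries, and both shATF4 Twist_OE libraries were above shCtrl in DMSO. SLC2A1 in the left-out LX-2 library stood at 28.7 CPM.

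SLC2A3 codes for GLUT3, a transporter with high affinity for glucose. SLC2A3 with shCtrl in LX-2 read 45.7 and 41.2 CPM (DMSO), 28 and 31.9 (TGFbeta), 44.01 (thapsigargin) and 76.7 and 86.8 (AA_Dep). With shATF4, SLC2A3 read 46.3 and 50.6 CPM (DMSO), 38.7 and 38.1 (TGFbeta), 39.97 and 41.3 (thapsigargin) and 50.8 and 51.3 (AA_Dep). Both shCtrl AA_Dep libraries stood above every other LX-2 library, and both shCtrl TGFbeta libraries were below DMSO and below shATF4 in TGFbeta. SLC2A3 with shCtrl in HMLE read 13.4 and 13.3 CPM (DMSO), 33.05 and 34.02 (Twist_OE), 55.5 and 59.9 (thapsigargin) and 30.1 and 30.7 (AA_Dep). With shATF4, SLC2A3 read 8.55 and 9.18 CPM (DMSO), 18.1 and 17.01 (Twist_OE), 28.04 and 30.4 (thapsigargin) and 18.1 (AA_Dep). In HMLE the shCtrl libraries did not overlap those with shATF4 in any condition and were higher in each, and the thapsigargin pair with shCtrl was the highest. SLC2A14 is a near-identical copy of SLC2A3, and reads that fit both may have been split or dropped by the counting, so SLC2A3 is uncertain to that extent. Named copies of SLC2A3 held 0.400% of the counts on the gene and its copies together.

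**Figure D2:**
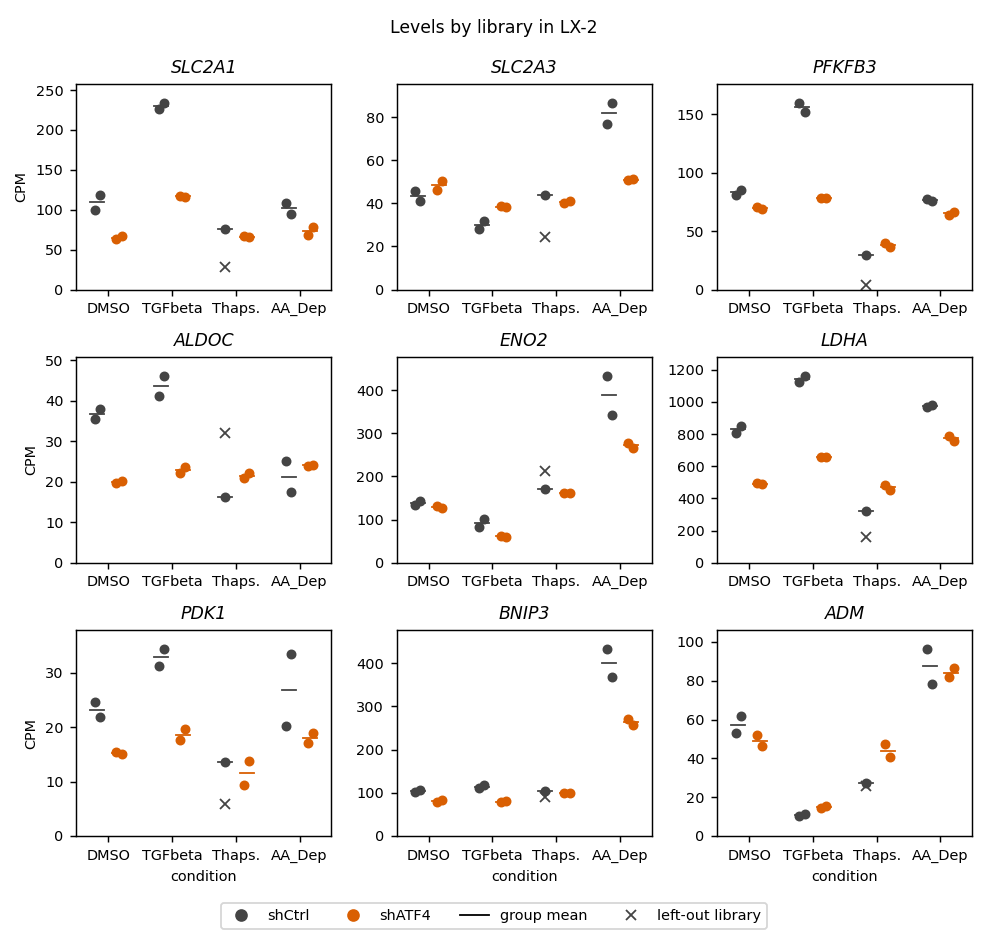
Levels in CPM of 9 genes in each LX-2 library by condition, shCtrl dark and shATF4 orange, with a line at each group mean and a cross for the library left out of the fit. SLC2A1, PFKFB3 and LDHA peak in shCtrl TGFbeta, where shATF4 lies well below, while BNIP3, ENO2 and SLC2A3 peak in shCtrl AA_Dep.

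Among the 8 enzymes from hexokinase to aldolase, the early steps that spend ATP, the ATF4 hairpin in LX-2 gave 0 higher and 6 lower of 8 (all genes 6.28% and 5.30%) in DMSO, 0 higher and 4 lower of 8 (all genes 10.9% and 10.7%) in TGFbeta, 1 higher and 0 lower of 8 (all genes 3.11% and 2.09%) in thapsigargin and 0 higher and 0 lower of 8 (all genes 3.87% and 6.04%) in AA_Dep. Shares in brackets are those of all genes tested, higher and lower, in the same comparison. TGFbeta itself gave 0 higher and 0 lower of 8 (all genes 11.1% and 11.0%), thapsigargin 2 higher and 4 lower of 8 (all genes 20.2% and 20.4%) and AA_Dep 3 higher and 4 lower of 8 (all genes 22.8% and 22.7%). ALDOC is the brain-type aldolase, which splits fructose bisphosphate. ALDOC with shCtrl in LX-2 read 35.4 and 38.03 CPM (DMSO), 41.2 and 46.2 (TGFbeta), 16.3 (thapsigargin) and 25.1 and 17.4 (AA_Dep). With shATF4, ALDOC read 19.7 and 20.2 CPM (DMSO), 22.1 and 23.7 (TGFbeta), 20.97 and 22.1 (thapsigargin) and 24.03 and 24.1 (AA_Dep). In DMSO and in TGFbeta both shCtrl libraries were above both with shATF4, and in thapsigargin the order was turned, with the 1 shCtrl library used lowest and the left-out library at 32.1 CPM.

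PFKL is the liver-type subunit of phosphofructokinase, the committed step. PFKL with shCtrl in LX-2 read 305 and 338 CPM (DMSO), 267 and 274 (TGFbeta), 154 (thapsigargin) and 232 and 181 (AA_Dep). With shATF4, PFKL read 251 and 229 CPM (DMSO), 168 and 166 (TGFbeta), 160 and 146 (thapsigargin) and 171 and 164 (AA_Dep). The shCtrl libraries were higher than those with shATF4 in DMSO and TGFbeta, and the left-out thapsigargin library, at 787 CPM, was above all of them. PFKM and PFKP, the muscle and platelet subunits, also fell with the hairpin in both of these conditions, by 0.33 and 0.32 for PFKM and by 0.40 and 0.60 for PFKP on the log2 scale. HK1 and HK2, the hexokinases that trap glucose in the cell, passed in none of the LX-2 hairpin comparisons, and HK1 rose by 0.80 ± 0.073 (log2, SE; edgeR adjusted p = 2.9e-07) in AA_Dep.

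ALDOA, the muscle-type aldolase, had low counts here, and a RefSeq locus overlaps it, so its values are uncertain. ALDOA with shCtrl in LX-2 read 12.6 and 17.5 CPM (DMSO), 8.52 and 8.91 (TGFbeta), 24.4 (thapsigargin) and 56.5 and 23.01 (AA_Dep). With shATF4, ALDOA read 7.73 and 7.07 CPM (DMSO), 7.54 and 7.16 (TGFbeta), 19.8 and 15.4 (thapsigargin) and 38.6 and 37.6 (AA_Dep). Both shCtrl AA_Dep libraries were above DMSO but lay far apart from each other, and they enclosed both shATF4 libraries. ALDOA with shCtrl in HMLE read 47.1 and 46.2 CPM (DMSO), 28.1 and 26.5 (Twist_OE), 36.4 and 33.95 (thapsigargin) and 15.8 and 18.1 (AA_Dep). With shATF4, ALDOA read 52.9 and 46.6 CPM (DMSO), 42.9 and 37.96 (Twist_OE), 44.2 and 45.5 (thapsigargin) and 21.4 (AA_Dep). In HMLE both shCtrl AA_Dep libraries were the lowest of all.

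In HMLE the same 8 enzymes gave 1 higher and 6 lower of 8 (all genes 28.3% and 28.9%) in Twist_OE, 2 higher and 2 lower of 8 (all genes 18.6% and 18.2%) in thapsigargin and 0 higher and 5 lower of 8 (all genes 29.1% and 32.6%) in AA_Dep, and the hairpin gave 5 higher and 1 lower of 8 (all genes 23.3% and 23.9%) in Twist_OE. HK2, the inducible hexokinase that binds mitochondria, turned most. HK2 with shCtrl in HMLE read 205 and 196 CPM (DMSO), 48.7 and 45.98 (Twist_OE), 244 and 232 (thapsigargin) and 193 and 199 (AA_Dep). With shATF4, HK2 read 257 and 246 CPM (DMSO), 174 and 155 (Twist_OE), 258 and 236 (thapsigargin) and 206 (AA_Dep). Both shCtrl Twist_OE libraries were far below the rest, and both shATF4 Twist_OE libraries lay between them and DMSO. GPI converts glucose 6-phosphate to fructose 6-phosphate. GPI with shCtrl in HMLE read 719.5 and 720 CPM (DMSO), 458 and 452 (Twist_OE), 611 and 589.5 (thapsigargin) and 374 and 357 (AA_Dep). With shATF4, GPI read 825 and 742 CPM (DMSO), 671 and 662 (Twist_OE), 677 and 689.8 (thapsigargin) and 431 (AA_Dep). The shCtrl AA_Dep pair was the lowest, and the shATF4 Twist_OE pair stood between shCtrl Twist_OE and DMSO. The TWIST1 and marker values given above apply to these Twist_OE results.

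The 7 enzymes from triose phosphate to pyruvate are the steps that return ATP. With the hairpin, LX-2 gave 0 higher and 5 lower of 7 (all genes 6.28% and 5.30%) in DMSO, 0 higher and 6 lower of 7 (all genes 10.9% and 10.7%) in TGFbeta, 1 higher and 0 lower of 7 (all genes 3.11% and 2.09%) in thapsigargin and 0 higher and 3 lower of 7 (all genes 3.87% and 6.04%) in AA_Dep. In TGFbeta these were TPI1 (triose phosphate isomerase), PGK1 (phosphoglycerate kinase), GAPDH, the enolases ENO1 and ENO2, and PKM. TPI1 fell by 0.71 ± 0.13 (log2, SE; edgeR adjusted p = 0.00081), PGK1 by 0.63 and ENO2 by 0.58. GAPDH, often used as a constant reference, fell by 0.28 and by 0.23 in DMSO. TPI1 with shCtrl in LX-2 read 1079 and 1264 CPM (DMSO), 1090 and 1198 (TGFbeta), 949 (thapsigargin) and 1361 and 968 (AA_Dep). With shATF4, TPI1 read 879 and 796 CPM (DMSO), 654 and 742 (TGFbeta), 836 and 714 (thapsigargin) and 1176 and 1139 (AA_Dep). For TPI1 the hairpin groups did not overlap in DMSO or TGFbeta and did overlap in AA_Dep. The left-out library read 2897 CPM for TPI1 and 5578 for ENO1, above every other LX-2 library. Named copies held 1.27% of the counts on TPI1 and its copies together, and less for GAPDH (0.350%) and PGAM1 (0.527%). How the counting treated reads shared with copies is not given in the sources used here.

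ENO2 and PKM stood apart within the group. ENO2 with shCtrl in LX-2 read 134 and 144 CPM (DMSO), 82.98 and 100.4 (TGFbeta), 170.5 (thapsigargin) and 433 and 342 (AA_Dep). With shATF4, ENO2 read 130.4 and 126 CPM (DMSO), 62.96 and 59.3 (TGFbeta), 162 and 161 (thapsigargin) and 278 and 267 (AA_Dep). ENO2 was highest in the shCtrl AA_Dep pair and lowest in the shATF4 TGFbeta pair. PKM makes pyruvate in the last step. PKM with shCtrl in LX-2 read 2473 and 2782 CPM (DMSO), 1790 and 1907 (TGFbeta), 1511 (thapsigargin) and 2602 and 2356 (AA_Dep). With shATF4, PKM read 1968 and 1953 CPM (DMSO), 1323 and 1349 (TGFbeta), 1683 and 1644 (thapsigargin) and 2010 and 1989 (AA_Dep). In DMSO, TGFbeta and AA_Dep both PKM libraries with shCtrl were above both with shATF4, and the shATF4 TGFbeta pair was the lowest. The left-out library stood at 3174 CPM for PKM.

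In HMLE the 7 enzymes gave 1 higher and 4 lower of 7 (all genes 28.3% and 28.9%) in Twist_OE, 1 higher and 4 lower of 7 (all genes 18.6% and 18.2%) in thapsigargin and 2 higher and 5 lower of 7 (all genes 29.1% and 32.6%) in AA_Dep. PGAM1 with shCtrl in HMLE read 822 and 865 CPM (DMSO), 661 and 652 (Twist_OE), 729.8 and 709.7 (thapsigargin) and 502 and 485 (AA_Dep). With shATF4, PGAM1 read 969 and 927 CPM (DMSO), 839 and 826 (Twist_OE), 806 and 812 (thapsigargin) and 576 (AA_Dep). PGAM1 was lowest in shCtrl AA_Dep and higher with shATF4 in each condition without overlap, by 0.15 to 0.32 on the log2 scale. ENO1 with shCtrl in HMLE read 3922 and 3947 CPM (DMSO), 3511 and 3474 (Twist_OE), 3564 and 3278 (thapsigargin) and 2680 and 2616 (AA_Dep). With shATF4, ENO1 read 4091 and 3758 CPM (DMSO), 3606 and 3431 (Twist_OE), 3496 and 3527 (thapsigargin) and 2482 (AA_Dep). ENO1 fell by 0.61 ± 0.047 (log2, SE; edgeR adjusted p = 1.5e-09) in AA_Dep and passed in none of the hairpin comparisons. ENO2 with shCtrl in HMLE read 11.6 and 10.6 CPM (DMSO), 15.7 and 15.7 (Twist_OE), 15.7 and 15.1 (thapsigargin) and 17.4 and 17.6 (AA_Dep). With shATF4, ENO2 read 16.3 and 16.99 CPM (DMSO), 12.2 and 13.02 (Twist_OE), 24.6 and 23.1 (thapsigargin) and 18.3 (AA_Dep). ENO2 in HMLE was lowest in shCtrl DMSO, and shATF4 was above shCtrl in DMSO and thapsigargin and below it in Twist_OE.

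The PFK-2 isoenzymes set the level of the regulatory fructose bisphosphate, the strongest activator of phosphofructokinase. PFKFB3 with shCtrl in LX-2 read 80.8 and 85.5 CPM (DMSO), 159.9 and 152 (TGFbeta), 29.5 (thapsigargin) and 77.8 and 76.04 (AA_Dep). With shATF4, PFKFB3 read 70.9 and 68.8 CPM (DMSO), 78.6 and 78.1 (TGFbeta), 39.8 and 36.1 (thapsigargin) and 63.6 and 66.6 (AA_Dep). The shCtrl TGFbeta pair was the highest for PFKFB3, the shATF4 TGFbeta pair stood below shCtrl in DMSO, and the thapsigargin libraries were the lowest, with the left-out library at 4.09 CPM. PFKFB4 fell by 0.69 ± 0.10 (log2, SE; edgeR adjusted p = 0.00015) with the hairpin in TGFbeta. PFKFB4 with shCtrl in LX-2 read 21.7 and 21.2 CPM (DMSO), 33.8 and 36.1 (TGFbeta), 16.1 (thapsigargin) and 38.5 and 36.2 (AA_Dep). With shATF4, PFKFB4 read 15.8 and 16.6 CPM (DMSO), 22.4 and 20.8 (TGFbeta), 21.98 and 20.4 (thapsigargin) and 33.7 and 33.3 (AA_Dep). Both AA_Dep and TGFbeta stood above DMSO for PFKFB4 in shCtrl cells, and shATF4 was the lower of the hairpins in DMSO, TGFbeta and AA_Dep.

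In HMLE the stresses lowered PFKFB3. PFKFB3 with shCtrl in HMLE read 144 and 145 CPM (DMSO), 175 and 166 (Twist_OE), 55.5 and 57.8 (thapsigargin) and 67.05 and 67.3 (AA_Dep). With shATF4, PFKFB3 read 128 and 124 CPM (DMSO), 146 and 149 (Twist_OE), 76.02 and 76.1 (thapsigargin) and 90.98 (AA_Dep). With shATF4, PFKFB3 was lower than with shCtrl in DMSO and Twist_OE and higher in thapsigargin and AA_Dep, without overlap in any of them. PFKFB4 with shCtrl in HMLE read 8.85 and 9.55 CPM (DMSO), 19.9 and 24.5 (Twist_OE), 7.17 and 8.06 (thapsigargin) and 8.87 and 10.7 (AA_Dep). With shATF4, PFKFB4 read 7.17 and 7.51 CPM (DMSO), 12.6 and 16.6 (Twist_OE), 9.89 and 10.2 (thapsigargin) and 14.5 (AA_Dep). PFKFB4 was highest in shCtrl Twist_OE.

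Of the 5 genes of pyruvate fate and lactate export, LDHA turns pyruvate to lactate, PDK1 and PDK3 are kinases that switch off pyruvate dehydrogenase, and SLC16A1 and SLC16A3 code for the carriers MCT1 and MCT4. The hairpin in LX-2 gave 0 higher and 1 lower of 5 (all genes 6.28% and 5.30%) in DMSO, 0 higher and 3 lower of 5 (all genes 10.9% and 10.7%) in TGFbeta, 1 higher and 0 lower of 5 (all genes 3.11% and 2.09%) in thapsigargin and 0 higher and 2 lower of 5 (all genes 3.87% and 6.04%) in AA_Dep. LDHA with shCtrl in LX-2 read 808 and 850.5 CPM (DMSO), 1123 and 1163 (TGFbeta), 320 (thapsigargin) and 968 and 979.7 (AA_Dep). With shATF4, LDHA read 494 and 489 CPM (DMSO), 656 and 656 (TGFbeta), 485 and 454 (thapsigargin) and 788 and 759.9 (AA_Dep). LDHA was highest in shCtrl TGFbeta and its shATF4 TGFbeta pair lay below shCtrl in DMSO. In thapsigargin the shATF4 libraries were above shCtrl, and there the single shCtrl library was the lowest of those used, with the left-out library lower still at 159 CPM. PDK1 with shCtrl in LX-2 read 24.6 and 21.8 CPM (DMSO), 31.3 and 34.4 (TGFbeta), 13.6 (thapsigargin) and 20.2 and 33.5 (AA_Dep). With shATF4, PDK1 read 15.5 and 15.1 CPM (DMSO), 17.6 and 19.6 (TGFbeta), 9.34 and 13.7 (thapsigargin) and 17.1 and 18.9 (AA_Dep). PDK1 fell by 0.82 ± 0.20 (log2, SE; edgeR adjusted p = 0.0077) with the hairpin in TGFbeta, while its difference in DMSO, -0.59 ± 0.20 on the log2 scale, did not pass although the libraries did not overlap.

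SLC16A3 is the carrier that exports lactate from glycolytic cells. SLC16A3 with shCtrl in LX-2 read 209.8 and 249 CPM (DMSO), 218 and 225 (TGFbeta), 154 (thapsigargin) and 587 and 382 (AA_Dep). With shATF4, SLC16A3 read 205 and 181 CPM (DMSO), 128 and 132 (TGFbeta), 257 and 184 (thapsigargin) and 485 and 444 (AA_Dep). In LX-2 it rose in AA_Dep and was lower with shATF4 in TGFbeta without overlap, by 0.76 on the log2 scale. SLC16A3 with shCtrl in HMLE read 103 and 112 CPM (DMSO), 432 and 425 (Twist_OE), 93.4 and 97.4 (thapsigargin) and 81.4 and 80.7 (AA_Dep). With shATF4, SLC16A3 read 105 and 101 CPM (DMSO), 197 and 186 (Twist_OE), 106 and 109 (thapsigargin) and 87.4 (AA_Dep). In HMLE the shCtrl Twist_OE pair stood far above all other libraries and the shATF4 Twist_OE pair lay between it and DMSO. LDHA with shCtrl in HMLE read 2179 and 2220 CPM (DMSO), 1711 and 1699 (Twist_OE), 1991 and 2072 (thapsigargin) and 1898 and 1839 (AA_Dep). With shATF4, LDHA read 2630 and 2564 CPM (DMSO), 2559 and 2580 (Twist_OE), 2210 and 2335 (thapsigargin) and 1987 (AA_Dep). In HMLE every shATF4 library of LDHA was above the shCtrl libraries of its condition, the reverse of LX-2 in DMSO, TGFbeta and AA_Dep. PDK3 in HMLE ranged from 4.25 CPM in shATF4 AA_Dep to 14.8 in shATF4 Twist_OE, and it fell by 0.90 ± 0.21 on the log2 scale in AA_Dep with shCtrl.

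EGLN1 and EGLN3 code for PHD2 and PHD3, oxygen-dependent hydroxylases that mark HIF for destruction and are themselves HIF targets. EGLN1 with shCtrl in LX-2 read 77.02 and 76.2 CPM (DMSO), 87.7 and 84.6 (TGFbeta), 48.03 (thapsigargin) and 112 and 131 (AA_Dep). With shATF4, EGLN1 read 60.9 and 63.5 CPM (DMSO), 66.4 and 71.8 (TGFbeta), 64.98 and 69.4 (thapsigargin) and 79.6 and 88.7 (AA_Dep). EGLN1 was highest in shCtrl AA_Dep, and the hairpin pair was lower in DMSO, TGFbeta and AA_Dep and higher in thapsigargin. EGLN1 with shCtrl in HMLE read 57.8 and 56.9 CPM (DMSO), 58.9 and 60.8 (Twist_OE), 66.3 and 71.5 (thapsigargin) and 92.05 and 83.2 (AA_Dep). With shATF4, EGLN1 read 65.8 and 73.5 CPM (DMSO), 61.2 and 62.4 (Twist_OE), 91.5 and 95.8 (thapsigargin) and 93.3 (AA_Dep). In HMLE EGLN1 was higher with shATF4 in DMSO and thapsigargin without overlap. EGLN3 with shCtrl in HMLE read 8.15 and 7.22 CPM (DMSO), 40.4 and 38.2 (Twist_OE), 2.47 and 3.45 (thapsigargin) and 9.69 and 6.79 (AA_Dep). With shATF4, EGLN3 read 9.49 and 9.43 CPM (DMSO), 20.7 and 21.3 (Twist_OE), 4.03 and 3.52 (thapsigargin) and 5.58 (AA_Dep). EGLN3 was highest in shCtrl Twist_OE, then in shATF4 Twist_OE, and lowest in thapsigargin. In LX-2 it was below 1 CPM in every library and passed no response or hairpin comparison.

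The 9 other hypoxia-inducible genes gave 3 higher and 1 lower of 8 (all genes 11.1% and 11.0%) in LX-2 with TGFbeta, 1 higher and 4 lower of 8 (all genes 20.2% and 20.4%) with thapsigargin and 5 higher and 1 lower of 8 (all genes 22.8% and 22.7%) with AA_Dep. With the hairpin they gave 0 higher and 2 lower of 8 (all genes 6.28% and 5.30%) in DMSO, 1 higher and 5 lower of 8 (all genes 10.9% and 10.7%) in TGFbeta, 1 higher and 1 lower of 8 (all genes 3.11% and 2.09%) in thapsigargin and 0 higher and 4 lower of 8 (all genes 3.87% and 6.04%) in AA_Dep. BNIP3 sits in the outer mitochondrial membrane and recruits the autophagy machinery. BNIP3 with shCtrl in LX-2 read 101 and 106 CPM (DMSO), 109.9 and 119 (TGFbeta), 104 (thapsigargin) and 433 and 368 (AA_Dep). With shATF4, BNIP3 read 79.3 and 82.4 CPM (DMSO), 78.2 and 81.1 (TGFbeta), 98.95 and 98.7 (thapsigargin) and 271 and 257 (AA_Dep). The shCtrl AA_Dep pair was the highest for BNIP3, followed by the shATF4 AA_Dep pair, which was still above all libraries of the other conditions. Named copies of BNIP3 held 1.08% of the counts on the gene and its copies together. ADM with shCtrl in LX-2 read 53.05 and 61.7 CPM (DMSO), 10.2 and 11.5 (TGFbeta), 27.04 (thapsigargin) and 96.4 and 78.5 (AA_Dep). With shATF4, ADM read 52.2 and 46.1 CPM (DMSO), 14.3 and 15.5 (TGFbeta), 47.4 and 40.5 (thapsigargin) and 81.7 and 86.8 (AA_Dep). Adrenomedullin was lowest in TGFbeta with either hairpin, and the shATF4 pair there was above the shCtrl pair.

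CA12 and CA9 are membrane carbonic anhydrases that help to control pH. CA12 with shCtrl in LX-2 read 4.48 and 4.66 CPM (DMSO), 2.88 and 1.77 (TGFbeta), 0.559 (thapsigargin) and 0.554 and 0.527 (AA_Dep). With shATF4, CA12 read 4.11 and 3.91 CPM (DMSO), 1.18 and 1.80 (TGFbeta), 0.796 and 0.299 (thapsigargin) and 0.497 and 0.146 (AA_Dep). CA12 in LX-2 was under 5 CPM in every library and under 1 CPM in thapsigargin and AA_Dep with either hairpin. CA12 with shCtrl in HMLE read 61.5 and 61.4 CPM (DMSO), 108 and 102 (Twist_OE), 40.6 and 41.9 (thapsigargin) and 14.4 and 14.3 (AA_Dep). With shATF4, CA12 read 47.5 and 43.8 CPM (DMSO), 62.4 and 64.3 (Twist_OE), 27.4 and 32.7 (thapsigargin) and 11.2 (AA_Dep). In HMLE it was highest in shCtrl Twist_OE and below 15 CPM in AA_Dep with either hairpin. CA9 with shCtrl in HMLE read 16.2 and 14.9 CPM (DMSO), 4.18 and 3.46 (Twist_OE), 14.3 and 16.2 (thapsigargin) and 36.9 and 36.03 (AA_Dep). With shATF4, CA9 read 32.2 and 28.8 CPM (DMSO), 12.5 and 13.1 (Twist_OE), 31.4 and 30.3 (thapsigargin) and 47.6 (AA_Dep). CA9 was lowest in shCtrl Twist_OE, and in each condition the shATF4 libraries were above those with shCtrl. CA9 was below the count filter in LX-2, where no library exceeded 0.251 CPM.

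NDRG1 is induced by hypoxia and by stress of the endoplasmic reticulum. NDRG1 with shCtrl in LX-2 read 46.9 and 51.6 CPM (DMSO), 80.3 and 88.6 (TGFbeta), 43.2 (thapsigargin) and 109.5 and 107 (AA_Dep). With shATF4, NDRG1 read 33.9 and 34.7 CPM (DMSO), 34.02 and 32.4 (TGFbeta), 27.5 and 25.6 (thapsigargin) and 56.8 and 56.5 (AA_Dep). In LX-2 every shATF4 library of NDRG1 was below the shCtrl libraries of its condition. NDRG1 with shCtrl in HMLE read 98.1 and 99.2 CPM (DMSO), 83.3 and 87.2 (Twist_OE), 426 and 434 (thapsigargin) and 288 and 289.9 (AA_Dep). With shATF4, NDRG1 read 69.4 and 73.5 CPM (DMSO), 94.7 and 99.5 (Twist_OE), 235 and 224 (thapsigargin) and 146 (AA_Dep). In HMLE the same held in DMSO, thapsigargin and AA_Dep, and in Twist_OE the shATF4 pair was slightly above the shCtrl pair. KDM3A in HMLE reached 67.3 and 61.4 CPM in shCtrl AA_Dep and 50.3 in shATF4 AA_Dep, against at most 24.2 in the other HMLE libraries. BNIP3L, the other mitophagy receptor, fell by 0.63 ± 0.10 (log2, SE; edgeR adjusted p = 0.001) with the hairpin in LX-2 AA_Dep.

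**Figure D3:**
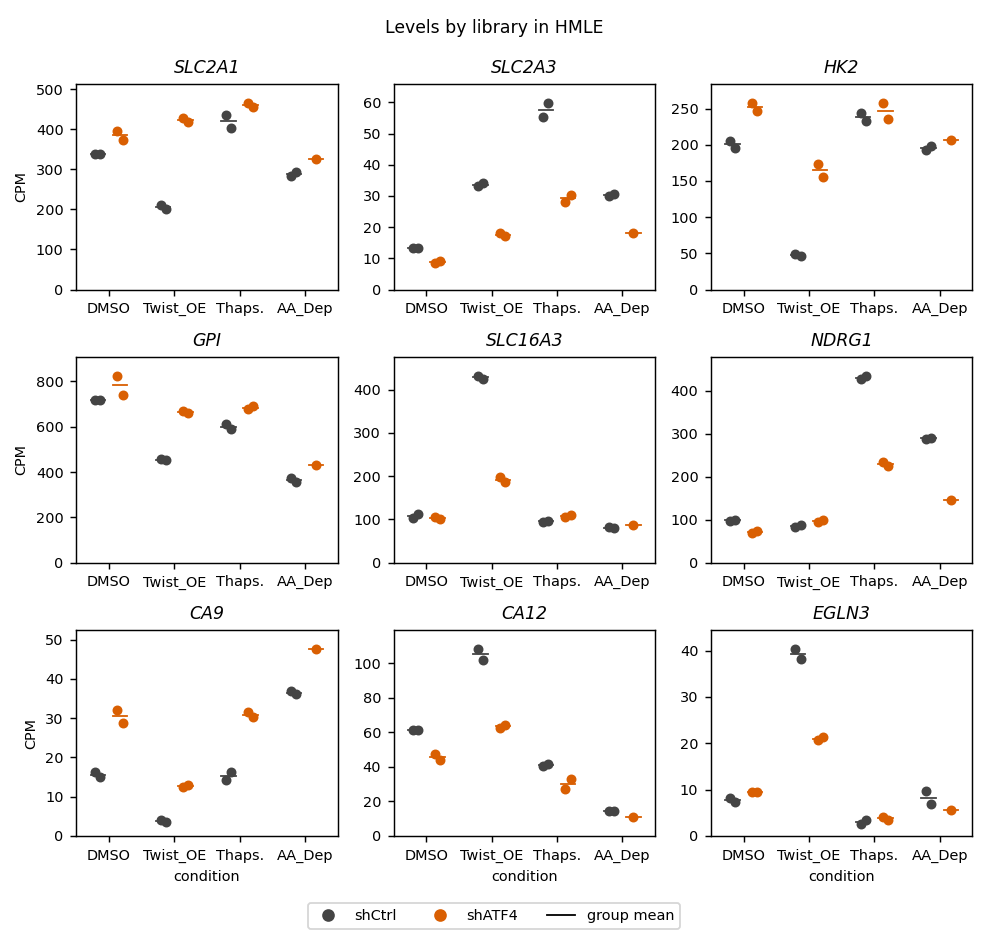
Levels in CPM of 9 genes in each HMLE library by condition, shCtrl dark and shATF4 orange, with a line at each group mean (shATF4 AA_Dep has 1 library). HK2 and CA9 are lowest and SLC16A3, CA12 and EGLN3 highest in shCtrl Twist_OE, and in each of these 5 genes shATF4 Twist_OE lies nearer to DMSO.

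Whether the response to a condition differed between hairpins was tested as an interaction, the response with shATF4 minus that with shCtrl. For TGFbeta in LX-2, PFKFB3 gave -0.75 ± 0.11 (log2, SE; edgeR adjusted p = 0.0029) and NDRG1 -0.84 ± 0.13 (adjusted p = 0.0029), a smaller rise or none with shATF4. This left 0 of 34 members higher (0%, against 0.563% of all genes tested) and 2 lower (5.88%, against 0.424%). SLC2A1 and LDHA, which rose with TGFbeta and were lower with the hairpin, gave -0.24 ± 0.13 and -0.058 ± 0.089, which did not pass. For thapsigargin, LDHA gave 1.32 ± 0.10 (edgeR adjusted p = 1.4e-06), ALDOC 1.29 ± 0.22, ADM 0.94 ± 0.20 and PFKFB4 0.81 ± 0.17, a smaller fall or a rise with shATF4. Thapsigargin left 12 of 34 members higher (35.3%, against 3.67% of all genes tested) and 0 lower (0%, against 2.46%), again on 1 shCtrl library, and with replicate 2 in its place the interaction gave 21 higher and 8 lower in a fit that called 12126 of all 19054 genes, with a median of 0.66. There ALDOC gave 0.16 (edgeR adjusted p = 0.52), and with both libraries 0.585 (0.5), so its call was lost. For AA_Dep, ALDOC gave 1.04 ± 0.19 (edgeR adjusted p = 0.0031) and SLC2A3 -0.86 ± 0.14 (adjusted p = 0.0015). AA_Dep left 3 of 34 members higher (8.82%, against 3.91% of all genes tested) and 5 lower (14.7%, against 6.65%), and with library totals alone 4 higher and 2 lower. The AA_Dep count was 3 without either shATF4 AA_Dep library, 4 and 2 without shATF4 DMSO replicates 1 and 2, 2 without shCtrl DMSO replicate 2 and 18 without shCtrl AA_Dep replicate 1. The AA_Dep calls of BNIP3L, LDHA, NDRG1, PFKM and SLC16A1 were each lost without at least 3 of the libraries compared, at edgeR adjusted p from 0.05 to 0.19. With all 16 LX-2 libraries edgeR called 0 members in each of the 3 interactions. At an unadjusted p under 0.05 there were 2, 6 and 2 of 33, against 353, 3018 and 948 of all 17772 genes tested. DESeq2's Wald test on the 15 libraries called 2 for TGFbeta and 8 for AA_Dep.

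In HMLE the Twist_OE response differed between hairpins: HK2 gave 1.47 ± 0.092 (log2, SE; edgeR adjusted p = 2.1e-10), SLC2A1 0.86 ± 0.071, CA9 0.78 ± 0.16 and NDRG1 0.65 ± 0.073, and EGLN3 gave -1.20 ± 0.19, SLC16A3 -1.102 ± 0.072, ENO2 -0.89 ± 0.13 and BNIP3L -0.76 ± 0.090. This left 9 of 35 members higher (25.7%, against 16.3% of all genes tested) and 8 lower (22.9%, against 13.4%), and the TWIST1 values above apply. For thapsigargin PFKFB3 gave 0.65 ± 0.068 (edgeR adjusted p = 8.6e-06) and NDRG1 -0.42 ± 0.070, which left 1 of 35 members higher (2.86%, against 2.16% of all genes tested) and 1 lower (2.86%, against 2.40%). With library totals alone the thapsigargin split was 2 higher and 1 lower. For AA_Dep PFKFB4 gave 0.94 ± 0.23 (edgeR adjusted p = 0.022) and PFKFB3 0.70 ± 0.077, while CA9 gave -0.52 ± 0.14, SLC16A1 -0.50 ± 0.085 and NDRG1 -0.46 ± 0.080. AA_Dep in HMLE left 2 of 35 members higher (5.71%, against 2.99% of all genes tested) and 3 lower (8.57%, against 2.10%). The AA_Dep count was 3 without shATF4 DMSO replicate 1, shCtrl AA_Dep replicate 1 or shCtrl DMSO replicate 2. The PFKFB4 call was lost without any of these 3 libraries or shATF4 DMSO replicate 2 (edgeR adjusted p from 0.056 to 0.12), and the CA9 call without any 1 of 5 libraries (0.051 to 0.14).

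The unstressed lines differed widely. In shCtrl DMSO cells, ENO2 was higher in LX-2 than in HMLE by 3.62 ± 0.10 (log2, SE; edgeR adjusted p = 5e-21), BNIP3L by 2.98 ± 0.093, KDM3A by 2.13 ± 0.10 and SLC2A3 by 1.69 ± 0.096. CA12 was lower in LX-2 by -3.76 ± 0.15 and EGLN3 by -3.86 ± 0.32, given as signed differences. CA9 had 3 counts in the LX-2 pair and 635 in the HMLE pair, a ratio of 206 after scaling (exact 95% interval 70.3 to 1003, counting error only). SLC2A1 differed by -1.65 ± 0.077, LDHA by -1.42 ± 0.054 and SLC16A1 by -1.46 ± 0.079, all lower in LX-2. The comparison left 13 of 35 members higher (37.1%, against 35.9% of all genes tested) and 17 lower (48.6%, against 34.5%). HK1, PGK1, PDK1, PDK3 and MXI1 did not pass, with differences from -0.058 to 0.15. With library totals alone the split was 16 higher and 14 lower, and the median of all genes moved by 0.26. Each line is 1 cell line, so its cell type and its other features cannot be told apart.

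The effect of the hairpin in DMSO differed between the lines in a test chosen after the data were seen. LDHA differed by -0.99 ± 0.075 (LX-2 effect minus HMLE effect, log2, SE; edgeR adjusted p = 1.5e-09), ALDOC by -0.95 ± 0.17, SLC2A1 by -0.93 ± 0.11 and ALDOA by -1.11 ± 0.33. SLC2A3 went the other way, at 0.75 ± 0.14 (adjusted p = 0.001). The test left 1 of 35 members higher (2.86%, against 3.12% of all genes tested) and 15 lower (42.9%, against 3.16%). ATF4 fell by 0.91 in LX-2 and by 1.85 in HMLE in these libraries. The count was 10 without HMLE shATF4 DMSO replicate 1, 10 without LX-2 shATF4 DMSO replicate 2 and 0 with all 16 LX-2 libraries (10 at an unadjusted p under 0.05). The ALDOA call was lost without any 1 of 7 of the 8 libraries (edgeR adjusted p from 0.075 to 0.27).

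**Figure D4:**
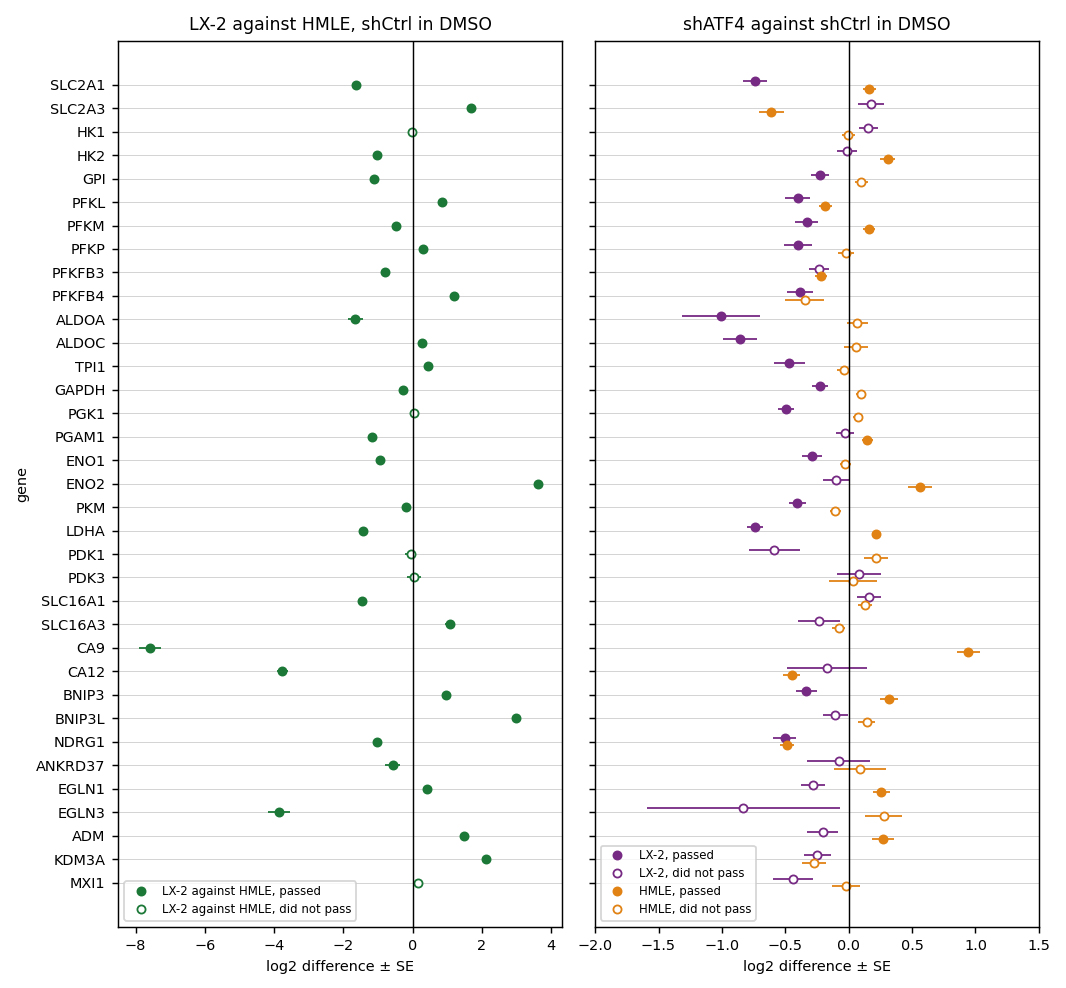
Left, log2 difference ± SE between LX-2 and HMLE in shCtrl DMSO for each of the 35 genes. Right, log2 difference ± SE between shATF4 and shCtrl in DMSO in LX-2 (purple) and HMLE (orange), with filled points past adjusted p of 0.05; in LX-2 16 members are lower and 0 higher, in HMLE 5 lower and 10 higher.

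Genes around the pathway were taken from lists of 18 other hypoxia-inducible genes, 20 other genes of glycolysis and gluconeogenesis, 11 of pyruvate dehydrogenase and pyruvate carriage, 7 of the pentose phosphate pathway and 10 HIF subunits and regulators. In LX-2, TGFbeta gave 14 higher and 1 lower of 18 (all genes 11.1% and 11.0%) for the other hypoxia-inducible genes, with a median of 0.60, and BHLHE40 (a repressor of transcription) and LOX (a collagen cross-linker) changed by 2.89 ± 0.080 and 2.06 ± 0.096 on the log2 scale. LOX is also a known TGFbeta target. The hairpin gave 2 higher and 6 lower of 18 (all genes 6.28% and 5.30%) in DMSO, 2 higher and 9 lower of 18 (all genes 10.9% and 10.7%) in TGFbeta, 1 higher and 4 lower of 18 (all genes 3.11% and 2.09%) in thapsigargin and 0 higher and 11 lower of 18 (all genes 3.87% and 6.04%) in AA_Dep. In TGFbeta DDIT4, an inhibitor of mTORC1, fell by 2.62 ± 0.19 and PPFIA4 by 2.34, and in AA_Dep DDIT4 fell by 1.75 ± 0.16, the angiogenic factor VEGFA by 1.58 and the hormone STC2 by 1.12. DDIT4, STC2 and VEGFA are known ATF4 targets as well as hypoxia-inducible. HIF1A, the oxygen-regulated subunit of HIF, fell by 1.36 ± 0.089 in LX-2 AA_Dep. This value is RNA and not protein, and its part in the members' changes was not tested.

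Of the other glycolysis and gluconeogenesis genes, 11 were tested in each line, and the mitochondrial enzyme PCK2, a known ATF4 target, fell with the hairpin by 0.39 to 1.60 on the log2 scale in the 4 LX-2 comparisons and by 0.92 to 2.73 in the 4 HMLE comparisons. Of the pyruvate dehydrogenase list the hairpin in LX-2 TGFbeta gave 2 higher and 1 lower of 11 (all genes 10.9% and 10.7%), and of the pentose phosphate list 1 higher and 1 lower of 7 (all genes 10.9% and 10.7%). In HMLE, AA_Dep gave 1 higher and 8 lower of 10 (all genes 29.1% and 32.6%) for the first list and 1 higher and 6 lower of 7 (all genes 29.1% and 32.6%) for the second, with medians of -0.81 and -0.83, and 13 higher and 3 lower of 18 (all genes 29.1% and 32.6%) for the other hypoxia-inducible genes. STC2 fell by 3.51 ± 0.078 and DDIT4 by 3.08 with the hairpin in HMLE AA_Dep. Twist_OE raised HIF1A and EPAS1, the other HIF alpha subunit, by 0.96 and 1.20, and gave 11 higher and 5 lower of 18 (all genes 28.3% and 28.9%) for the other hypoxia-inducible genes, while the hairpin in Twist_OE gave 4 higher and 12 lower of 18 (all genes 23.3% and 23.9%).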

How the data were processed

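The authors deposited 1 table of gene counts per RNA sample, whole numbers for 58735 Ensembl genes. The submitters' processing notes name cutadapt, Bowtie2, STAR, HOMER, featureCounts and DESeq and the builds hg19 and hg38, and which of these made the counts, the annotation and any use of strand are not given in the sources used here. Depth is given in the report, with 15 libraries in each line's fit.

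Each line was fitted alone with edgeR 4.0.16 (R 4.3.3): filterByExpr (minimum count 10, total 15), trimmed-mean scaling, quasi-likelihood tests and Benjamini-Hochberg adjustment over all 18649 (LX-2) or 17940 (HMLE) genes tested, called at 0.05. Both lines were fitted together (20308 genes) for comparisons between them. The SE is the fitted log2 change divided by the square root of F, and levels are CPM, counts scaled to a common library size. The LX-2 library that stood apart was left out of the main result. Alternatives were DESeq2 1.42.0, other scaling, no filter, only the compared groups, a replicate block and all 16 LX-2 libraries. Others were the library that stood apart in place of its partner, and leaving out 1 library at a time, except a library alone in its group.

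Members and lists were chosen with earlier results of these data known. Within a comparison up to 4 members with the largest rise and 4 with the largest fall among those past the threshold are named. Libraries are given one by one for up to 3 members of a role list and line, those with the largest change, with NDRG1 in LX-2 beside the role's 3, added after its values were seen, and other members are named without such a rule. From each context list up to 3 members a comparison are named. Promoters are those with the most ACGTG or GCGTG matches among members that have a window and passed the threshold, up to 3 a comparison. Gene symbols were matched from Ensembl identifiers through a table of gene names for 58207 of 58735 genes.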

Additional observations from a re-analysis of the deposited data

Results flagged for a closer look

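Each value here is a difference between 2 effects that passed the edgeR test at an adjusted p under 0.05, on the log2 scale. An interaction is the response with shATF4 minus that with shCtrl. For the response to TGFbeta in LX-2, the negative differences were NDRG1 -0.84 and PFKFB3 -0.75. For thapsigargin in LX-2, where shCtrl has 1 library, the positive differences were LDHA 1.32, ALDOC 1.29, ADM 0.94, PFKFB4 0.81, EGLN1 0.80, PGK1 0.64, PFKFB3 0.63, GPI 0.58, PKM 0.57, SLC2A1 0.57, ENO1 0.44 and GAPDH 0.38. For AA_Dep in LX-2, the positive differences were ALDOC 1.04, PFKM 0.43 and LDHA 0.40, and the negative differences were SLC2A3 -0.86, SLC16A1 -0.54, BNIP3L -0.53, NDRG1 -0.43 and HK1 -0.36. For Twist_OE in HMLE, where TWIST1 also differed between hairpins, the positive differences were HK2 1.47, SLC2A1 0.86, CA9 0.78, NDRG1 0.65, MXI1 0.65, ALDOA 0.47, GPI 0.43, LDHA 0.35 and PGAM1 0.18, and the negative differences were EGLN3 -1.20, SLC16A3 -1.102, ENO2 -0.89, BNIP3L -0.76, BNIP3 -0.67, HK1 -0.40, SLC2A3 -0.35 and CA12 -0.30. For thapsigargin in HMLE, the positive difference was PFKFB3 0.65, and the negative difference was NDRG1 -0.42. For AA_Dep in HMLE, where shATF4 has 1 library, the positive differences were PFKFB4 0.94 and PFKFB3 0.70, and the negative differences were CA9 -0.52, SLC16A1 -0.50 and NDRG1 -0.46. For the hairpin effect in DMSO, as LX-2 minus HMLE, a test chosen after the data were seen, the positive difference was SLC2A3 0.75, and the negative differences were ALDOA -1.11, LDHA -0.99, ALDOC -0.95, SLC2A1 -0.93, PDK1 -0.83, ENO2 -0.69, BNIP3 -0.68, PGK1 -0.60, EGLN1 -0.57, PFKM -0.53, ADM -0.51, GPI -0.36, GAPDH -0.35, HK2 -0.35 and PKM -0.33. No group had the 4 samples that a test for 1 outlying sample needs.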

How the results depend on the processing

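The main limit is the LX-2 library left out of the fit. With all 16 LX-2 libraries the members called were 3 for TGFbeta, 12 for thapsigargin and 10 for AA_Dep in shCtrl cells, 0, 1, 0 and 0 for the hairpin in DMSO, TGFbeta, thapsigargin and AA_Dep, 0 for each of the 3 interactions and 0 for the difference between lines in the hairpin effect, with 6, 11, 8, 6, 2, 6, 2 and 10 at an unadjusted edgeR p under 0.05 in the last 8. At the same unadjusted p the LX-2 hairpin comparisons had 1158, 1968, 5735 and 932 of all 17772 genes tested. The LX-2 interactions had 353, 3018 and 948. The 185 called member values are those of these comparisons and of the lines in shCtrl DMSO, which had 30. Of the 185, 46 were kept, 131 were no longer called and 8 turned direction. With that library in place of the other, 29 members were called for the hairpin in thapsigargin and 29 for its interaction, and the median of all genes moved by -0.65, 0.66 and 0.66 in the 3 thapsigargin comparisons.

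The values that turned direction all involve that library. For LX-2 thapsigargin against DMSO they were, with all 16 libraries, 0.96 for ENO1, 0.13 for GPI, 0.73 for PFKL and -0.12 for HK2, and with that library in place of the other 0.43 for PKM, 1.58 for ENO1, 0.62 for GPI, -0.90 for MXI1, 1.45 for PFKL and -1.14 for HK2. For the hairpin in thapsigargin GPI gave -0.53 and -1.02, and for the interaction PKM gave -0.21 and -0.65, ENO1 -0.84 and -1.45 and GPI -0.29 and -0.78, in the same order.

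When other groups were kept out of the fit the counts were 14 for LX-2 AA_Dep, 11 and 1 for the LX-2 hairpin in thapsigargin and AA_Dep, 6 and 2 for the LX-2 interactions with TGFbeta and AA_Dep, and 8 for the HMLE interaction with AA_Dep. Without the count filter they were 4 for the LX-2 TGFbeta interaction and 4 and 8 for the HMLE interactions with thapsigargin and AA_Dep. The cause was not tested. Of 355 called member values over the 22 comparisons, 348 were kept with DESeq2 size factors, 336 with DESeq2's Wald test, 329 with library totals alone, 339 without the count filter, 320 with only the compared groups and 344 with the replicate block, and none of these turned direction. With library totals the median of all genes moved by -0.13 in LX-2 TGFbeta, 0.11 in LX-2 thapsigargin, 0.12 in HMLE AA_Dep and 0.26 between lines.

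The replicate differences of 2 groups correlated over genes at -0.17 to 0.14 in LX-2 (10 of 21 pairs of groups positive). In HMLE they correlated at -0.018 to 0.10 (16 of 21 positive). Such low values cannot settle whether a replicate number marks a shared culture or day. With the replicate block the HMLE thapsigargin interaction called 5 members in place of 2, and the other 21 counts stayed within 1.5 times.

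Leaving out 1 library at a time, the members called in LX-2 ran from 12 to 13 for TGFbeta, 19 to 20 for thapsigargin and 19 to 26 for AA_Dep, from 6 to 15 for the hairpin in DMSO, 15 to 18 for the hairpin in TGFbeta, 2 to 3 for the hairpin in Thapsigargin and 6 to 19 for the hairpin in AA_Dep and from 2 to 2 for the interaction with TGFbeta, 8 to 13 for the interaction with Thapsigargin and 2 to 18 for the interaction with AA_Dep. In HMLE they ran from 24 to 28 for Twist_OE, 17 to 19 for thapsigargin and 29 to 31 for AA_Dep, from 8 to 10 for the hairpin in DMSO, 21 to 24 for the hairpin in Twist_OE, 10 to 16 for the hairpin in Thapsigargin and 8 to 13 for the hairpin in AA_Dep and from 14 to 17 for the interaction with Twist_OE, 2 to 3 for the interaction with Thapsigargin and 3 to 5 for the interaction with AA_Dep. Between lines they ran from 28 to 29 for the level and 10 to 17 for the hairpin effect. The single LX-2 shCtrl thapsigargin library and the single HMLE shATF4 AA_Dep library could not be left out. The ranges of comparisons that use them therefore do not test how far the counts rest on those libraries.

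Depth limits CA9, CA12 and EGLN3 in LX-2 and ANKRD37 in both lines. With 2 or fewer libraries a group, a difference that did not pass is not shown to be absent.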
